A study of Mus musculus with 6 samples.

Results

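Rad50 and Rad51c, a sensor of broken DNA ends and a homologous recombination factor, were followed in ovulated mouse oocytes with and without the kinase gene Mtor. They were found by gene name, and both names were present, so 2 of the 516 genes of the deposited table are described. RNA was sequenced from C57BL/6 metaphase II oocytes, the mature eggs arrested in the second meiotic division. In the Mtor CKO group (n = 3 libraries) Mtor had been deleted in oocytes by Cre under the Zp3 promoter, which is active in growing oocytes, and it was compared with wild-type oocytes (WT, n = 3 libraries). Ovulation was induced in both groups with 5 IU PMSG per mouse on day 22 and, after 48 hours, 5 IU hCG; the mice were labelled as 24 days old, and oocytes were taken from the oviduct 14 hours after hCG. Each library pooled 5 oocytes. The labels do not say whether libraries came from separate mice, so p-values reflect only how these libraries vary, part of which may be technical.

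RAD50 is an ATPase of the SMC family that joins MRE11 and NBN in a complex which binds and tethers the ends of a double-strand break and activates the kinase ATM. RAD51C is a DNA-binding ATPase that takes part in homologous recombination once the ends of a break have been resected. In mice, RAD51C also has a late meiotic role, and oocytes with too little of it show separated sister chromatids and broken chromosomes at metaphase II. Transcription is silent in metaphase II oocytes, so the RNA measured there is the store made during growth, less what has been degraded.

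Both members encode proteins that bind ATP through a P-loop, also called a Walker A motif. The codons of that loop are shown because they are a sequence feature which the members share and which their names did not use. Capitals mark the codons for a glycine, any 4 residues, a glycine, a lysine and a serine or threonine, with flanking codons in lower case, read 5′ to 3′ on the coding strand from the GENCODE M21 transcripts (GRCm38).
Rad50 (Rad50-201): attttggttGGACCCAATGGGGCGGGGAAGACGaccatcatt
Rad51c (Rad51c-201 and Rad51c-202): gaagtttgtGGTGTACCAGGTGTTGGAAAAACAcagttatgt
The printed Rad50 bases lie within chr11:53706060-53706959 and those of Rad51c within chr11:87401556-87402638, both on the minus strand, and an intron interrupts each. In Rad50 the junction follows base 24 of the capitals, so exon 1 ends with the last codon of the loop. In Rad51c the junction comes 32 bases after the first capital, and the loop lies in exon 2. Among the 410 tested coding genes with a complete coding transcript, 23 (5.61%) held this pattern in their translation.

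Rad50 (ENSMUSG00000020380) occupies chromosome 11 from 53649519 to 53707319 (mm10), and Rad51c (ENSMUSG00000007646) lies 33.7 Mb further along, from 87376645 to 87404954. Rad50-201, the complete coding transcript, has 25 exons and 5153 bases, of which 3939 are coding. Its transcript is longer than that of 83.4% of the 410 coding genes, whose median is 2760 bases. Rad51c has coding transcripts with different starts and ends. Rad51c-201 has 1632 bases and a 3′ UTR of 289, whereas Rad51c-202 has 3944 bases and a 3′ UTR of 2741. The end of the long form is shown because it marks the 3′ end that Rad51c-201 lacks. Capitals mark the last AATAAA polyadenylation signal, which lies 19 bases before the end of the transcript (chr11:87376652-87376681, minus strand).
Rad51c-202: gcagtgtgaataAATAAAaattctggactt
FPKM (fragments scaled by transcript length and library size) is 1 value per row and does not separate these forms. The Rad50 row combined 5 annotated and 2 assembled models, and the Rad51c row 4 annotated and 1 assembled model. Neither Rad50-201, Rad51c-201 nor Rad51c-202 held TTTTAT or TTTTAAT, forms of the cytoplasmic polyadenylation element, in its last 100 bases on the sense strand. Of 375 tested genes with a 3′ UTR of at least 100 bases, 18.9% did. Rad51c-202 held such words further inside its 3′ UTR, 2027 to 2142 bases before its end. The other annotated models were not scanned, among them Rad51c-204, which ends at 87378591, close to such words at 87378672 and 87378682. GENCODE places no other protein-coding gene within either interval. The small RNA gene Gm22275 lies on the other strand inside Rad50, and Tex14 starts 111 bases beyond the 5′ end of Rad51c on the other strand. No transcript of another gene matched a Rad50 transcript or Rad51c-201 over at least 100 bases at 90% identity. Alignments of at most 157 bases of Rad51c-202 matched transcripts of at least 420 other genes, since the search limits how many matches it reports. Reads from the matching bases can be shared with other genes.

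The mean level of Rad50 in Mtor CKO oocytes was 51.0% of that in WT oocytes, but the difference did not pass the test across the table. Rad50 was measured at 23.6, 39.5 and 27.2 FPKM in WT libraries 1, 2 and 3 and at 9.22, 23.6 and 13.2 FPKM in Mtor CKO libraries 1, 2 and 3. The groups touched without overlapping: Mtor CKO library 2 lay only 0.0012 FPKM below WT library 1. Mean FPKM was 30.1 ± 8.29 in the WT group and 15.4 ± 7.43 in the Mtor CKO group (SD, n = 3 libraries each). On the log2(FPKM + 1) scale the difference, Mtor CKO minus WT, was -0.99 (SE 0.42, 95% interval -1.95 to -0.04), with an adjusted p of 0.0556 by limma with Benjamini-Hochberg adjustment over the 471 tested genes. A gene was tested if it reached 1 FPKM in at least 3 libraries, and the threshold was an adjusted p of 0.05.

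Rad51c fell by a similar amount, and its WT libraries were closely grouped. It stood at 35.7, 33.04 and 34.5 FPKM in WT libraries 1, 2 and 3 and at 12.1, 24.9 and 14.9 FPKM in Mtor CKO libraries 1, 2 and 3. All Mtor CKO libraries lay below all WT libraries, with 8.14 FPKM between the nearest 2. Mean FPKM was 34.4 ± 1.33 in the WT group and 17.3 ± 6.72 in the Mtor CKO group (SD, n = 3 libraries each), and the Mtor CKO mean was 50.2% of that of WT. The log2 difference was -1.01 (SE 0.36, 95% interval -1.84 to -0.19, limma adjusted p = 0.0410). The SD was 3.85% of the mean in WT and 38.9% in Mtor CKO for Rad51c, and 27.6% in WT and 48.4% in Mtor CKO for Rad50. FPKM is a share of each library's RNA, so fewer Rad51c transcripts per oocyte and more of other RNA cannot be told apart, and neither can a decrease in each of the 5 pooled oocytes and a larger one in some.

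**Figure D1:**
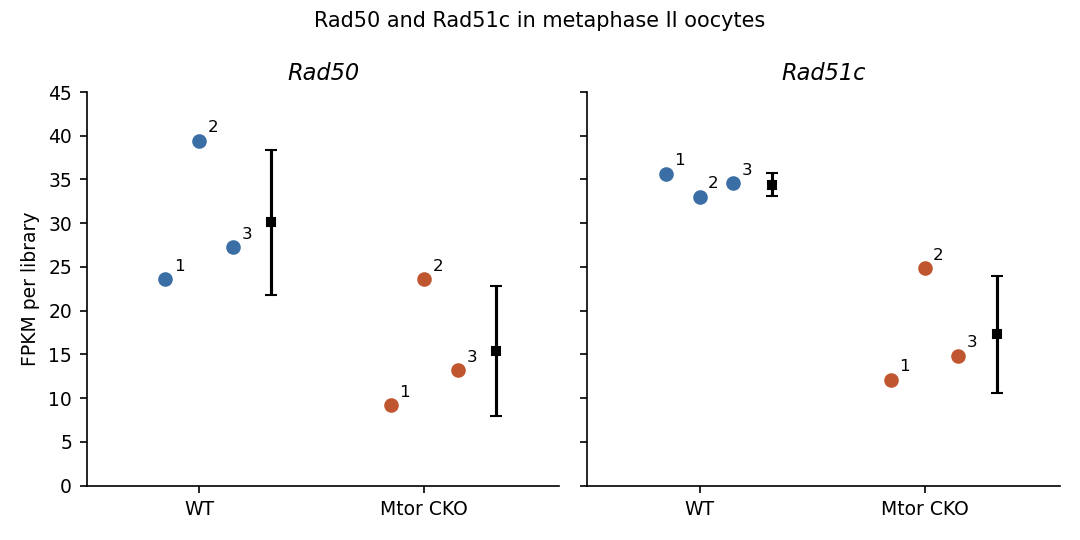
FPKM of Rad50 (left) and Rad51c (right) in each library, with the replicate number beside each point; black squares and bars are the mean and SD of 3 libraries. Mtor CKO library 2 is the highest of its group for both genes and reaches 23.6 FPKM for Rad50, level with WT library 1, whereas the Rad51c groups are separated by 8.14 FPKM.

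With an exact permutation test of each gene alone (two-sided, 20 arrangements), p was 0.1 for Rad50 and 0.1 for Rad51c, the smallest value that 3 libraries against 3 allow. No difference between the genotypes was detected in the proportion of Rad50 to Rad51c. The ratio of their FPKM was 0.662, 1.19 and 0.789 in WT libraries 1, 2 and 3 and 0.761, 0.949 and 0.890 in Mtor CKO libraries 1, 2 and 3. The Mtor CKO ratios lay inside the WT range, and the log2 ratio differed by 0.01 between the genotypes (exact permutation p = 1, two-sided). WT library 2 was the one library in which Rad50 stood above Rad51c.

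The rows of the table had been picked for a difference between these libraries. Neither a pass by limma nor an exact permutation p of 0.1 therefore counts as independent evidence. Every row had an absolute log2 fold of at least 1.0006 in the authors' deposited table, and the largest p-value there was 0.0099. Rad50 and Rad51c were the 12th and 15th closest to that fold bound of the 516 rows. The authors' deposited table gives Rad50 a log2 fold of -1.01 with p = 0.00325 and a q-value of 0.104, and Rad51c a log2 fold of -1.02 with p = 0.0011 and a q-value of 0.0570. A q-value of 0.05 or less was given to 49.2% of all rows of the authors' deposited table, and to neither member. By limma, 73.7% of the 471 tested genes passed in either direction and 60.3% were lower, while in 59.9% all Mtor CKO libraries lay below all WT libraries. Against that background, 1 of the 2 members fell and both were without overlap. Their log2 differences lay near the median of the tested genes, -1.03, as the 261st lowest for Rad50 and the 247th lowest for Rad51c.

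**Figure D2:**
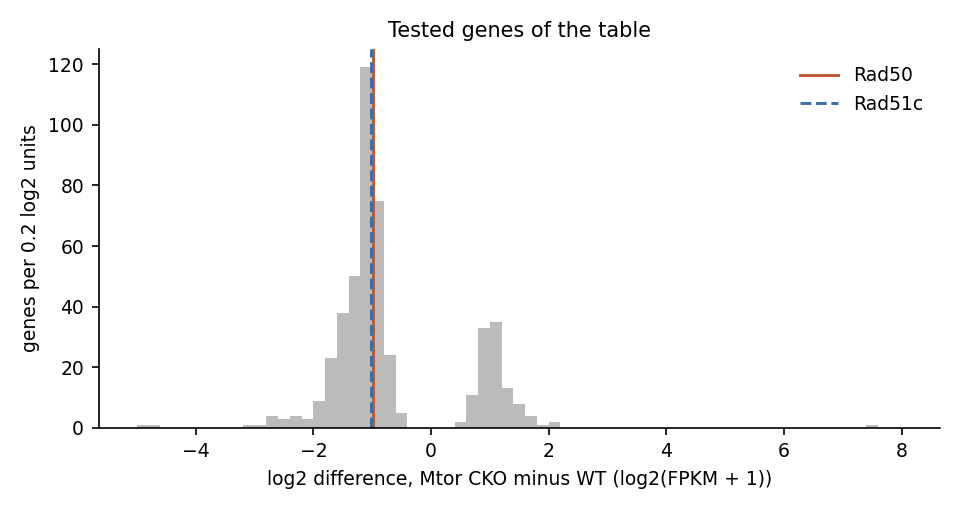
Histogram of the log2 difference (Mtor CKO minus WT, log2(FPKM + 1)) of the 471 tested genes in bins of 0.2, with Rad50 as the solid line and Rad51c as the dashed line. Both members sit in the main peak of lower genes, at -0.99 and -1.01; few genes lie near 0 because the table holds only genes picked for a difference.

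Both results depended on which libraries were included. The call of Rad51c was lost without Mtor CKO replicate 1, where its log2 difference was -0.80 (limma adjusted p = 0.114), and without Mtor CKO replicate 3 (-0.94, adjusted p = 0.111). It was also lost without WT replicate 1 (-0.99, adjusted p = 0.0710), WT replicate 2 (-1.04, adjusted p = 0.114) and WT replicate 3 (-1.01, adjusted p = 0.0951). Without Mtor CKO replicate 2 it held at -1.29 (limma adjusted p = 0.0141), and Rad50 then passed at -1.33 (limma adjusted p = 0.0174). Without Mtor CKO replicate 1, Mtor CKO replicate 3, WT replicate 2 or WT replicate 3, only 1 to 3 genes of the whole table were called lower, and none of the genes named here was among them. Mtor CKO replicate 2 was the highest library of its group for both members, and also for 233 (64.5%) of the 361 tested genes with a lower mean log2 value in Mtor CKO. WT replicate 2 was the highest WT library for 58.2% of those genes and for Rad50, but the lowest for Rad51c. Each library was also centred on the median of the tested genes, which subtracts part of the common fall of genes picked for a difference. The log2 difference was then -0.24 for Rad50 (limma adjusted p = 0.613) and -0.26 for Rad51c (limma adjusted p = 0.565), where the median of the tested genes was -0.28.

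**Figure D3:**
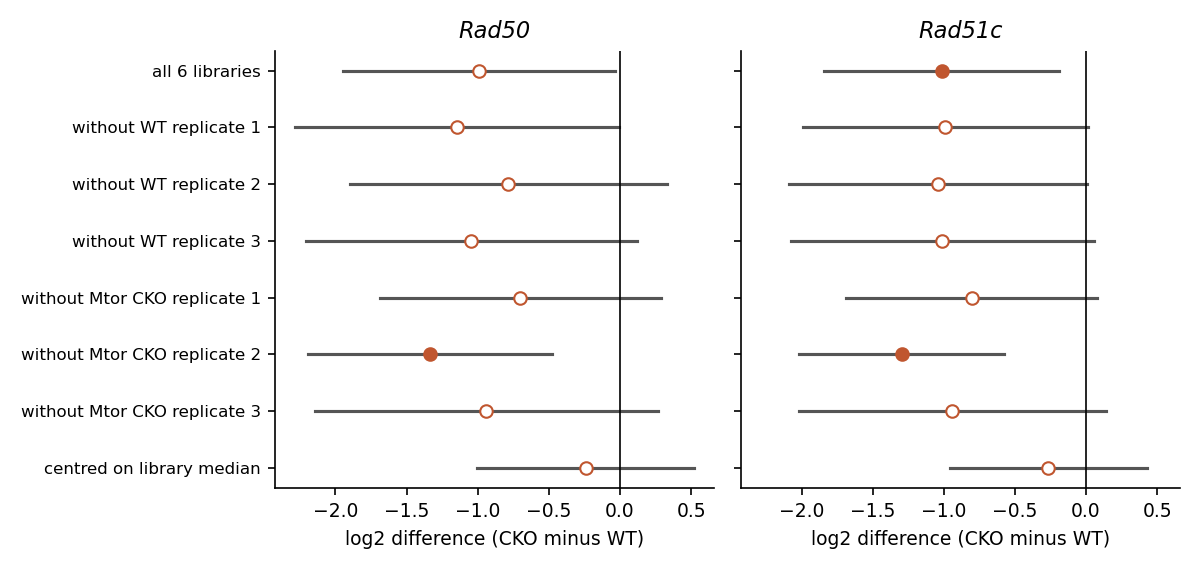
Log2 difference (Mtor CKO minus WT) of Rad50 and Rad51c with 95% intervals from limma, for all 6 libraries, without each library in turn and with each library centred on its median; filled points passed an adjusted p of 0.05. Rad51c passed with all 6 libraries and without Mtor CKO replicate 2, Rad50 only without Mtor CKO replicate 2, and the points stayed below 0 in each of these settings.

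Other repair genes were looked up through 9 lists of 254 symbols, older names included, that cover break signalling, resection, recombination, end joining, the Fanconi anaemia pathway, SMC complexes, excision and mismatch repair, and arrest and apoptosis. Besides the 2 members, 6 of these were in the table, and a gene missing from it has no value here. The lists are not complete: Ccnb1ip1, a meiotic crossover gene on none of them, was tested and had a log2 difference of 1.12. By limma 5 of the 8 list genes fell, 0 rose and 3 did not pass, where 60.3% of the tested genes fell and 13.4% rose. At an unadjusted p under 0.05, 7 of the 8 were lower and 0 higher, against 310 lower and 72 higher of the 471 tested genes. The median log2 difference of the 8 was -1.01, against -1.03 for all tested genes. The authors' deposited table gives 6 of its genes the single term DNA repair, a set looked up after its values were seen. More specific repair terms were not searched, and Rpa1, Pms1 and Ercc8 were not among the 6. Of these 6 genes, 3 fell (Rad51c, Smc4 and Nono), 1 rose, and Rad50 and Mus81 did not pass. The gene that rose was Ube2w, a ubiquitin-conjugating enzyme that is on none of the 9 lists, at 28.6, 21.9 and 18.0 FPKM in WT and 99.4, 38.4 and 63.2 FPKM in Mtor CKO (log2 difference 1.43, limma adjusted p = 0.0367). Nono, which encodes an RNA- and DNA-binding protein, had a log2 difference of -1.46 (limma adjusted p = 0.0384). Of the 24 symbols for break sensing and signalling, Rad50 was the one in the table, and MRE11 and NBN, its partners, were not analysed here.

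Rpa1 and Mus81, which act early and late in recombination, did not pass. Rpa1, the large subunit of the protein that coats single-stranded DNA, stood at 5.80, 13.0 and 13.0 FPKM in WT and at 2.66, 8.38 and 2.06 FPKM in Mtor CKO. Mtor CKO library 2 again stood apart from the other 2, above WT library 1, and the log2 difference of -1.22 did not pass (limma adjusted p = 0.0555). Mus81, a nuclease that cuts joint molecules late in recombination, was the one of the 8 with a higher mean in Mtor CKO. It stood at 16.5, 12.3 and 8.70 FPKM in Mtor CKO and at 3.44, 9.14 and 7.66 FPKM in WT, with overlapping groups and a log2 difference of 0.85 (limma adjusted p = 0.0905). Mus81 was the one list gene to pass, as higher, when libraries were centred on their median (log2 difference 1.59). That setting raised the log2 difference of every tested gene, so the pass is not read as a rise.

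The mismatch repair factor Pms1 fell, with a mean FPKM of 30.2 ± 9.41 in WT against 14.8 ± 5.84 (SD, n = 3 libraries each) and a log2 difference of -1.005 (limma adjusted p = 0.0468). Its call was lost with no filter on level (adjusted p = 0.0507). Ercc8, which recruits repair to stalled transcription, fell from a mean FPKM of 3.46 ± 1.20 to one of 0.939 ± 0.158 (SD, n = 3 libraries each). Its log2 difference was -1.17 (limma adjusted p = 0.0362), which the added 1 FPKM shrinks at so low a level: with 0.1 FPKM added it was -1.73. Of the SMC complexes, to which RAD50 is related in structure, the condensin subunit Smc4 was far more abundant than the members. Its mean FPKM fell from 1073 ± 228 to 492 ± 196 (SD, n = 3 libraries each), a log2 difference of -1.17 (limma adjusted p = 0.0397). Mau2, part of the cohesin loader, fell from a mean FPKM of 2.19 ± 0.682 to one of 0.786 ± 0.257 (SD, n = 3 libraries each). Its log2 difference was -0.83 (limma adjusted p = 0.0374), shrunk in the same way, and -1.38 with 0.1 FPKM added. The count of 5 was 0 without Mtor CKO replicate 1, without Mtor CKO replicate 3, without WT replicate 2 or without WT replicate 3. It was 3 without WT replicate 1 (Ercc8, Mau2 and Rpa1) and 7 without Mtor CKO replicate 2.

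**Figure D4:**
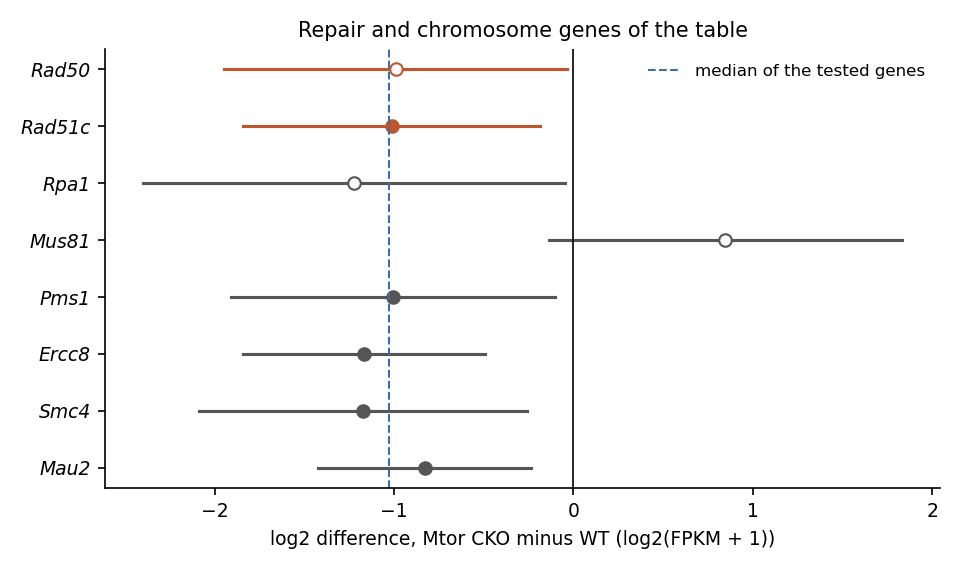
Log2 difference (Mtor CKO minus WT, log2(FPKM + 1)) with 95% intervals from limma for the 8 list genes of the table; filled points passed an adjusted p of 0.05, the members are in orange, and the dashed line is the median of the 471 tested genes. The members lie at -0.99 and -1.01, beside that median of -1.03, and Mus81 is the one point above 0, at 0.85.

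Likeness of pattern was measured as the root mean square difference over the 6 libraries between profiles of log2(FPKM + 1), each centred on its gene's mean. The 3 genes most like Rad50 were Plcxd3, Pms1 and 2210019I11Rik, with differences of 0.0815, 0.108 and 0.111, against a median of 0.453 over the other tested genes. Plcxd3 was low, at 2.90, 5.16 and 3.44 FPKM in WT and at 0.788, 3.19 and 1.13 FPKM in Mtor CKO. Its likeness depended on the added 1 FPKM: with 0.1 FPKM added its log2 difference between genotypes was -1.32, against -1.04 for Rad50. Pms1 followed Rad50 in level as well, at 23.4, 41.0 and 26.3 FPKM in WT libraries 1, 2 and 3 and at 10.7, 21.5 and 12.2 FPKM in Mtor CKO libraries 1, 2 and 3. In both genes the second library of each genotype was the highest and the first the lowest, a shape for which Pms1 was picked here.

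The 3 genes most like Rad51c were Tuba3a, an alpha-tubulin, Mapk8, which encodes the kinase JNK1, and Pwp1, with differences of 0.0816, 0.0880 and 0.0888. Mapk8 stood at 42.5, 35.4 and 36.4 FPKM in WT and at 13.8, 24.2 and 16.1 FPKM in Mtor CKO, levels near those of Rad51c. Pwp1 was far lower, at 2.22, 2.06 and 1.80 FPKM in WT and at 0.165, 0.991 and 0.279 FPKM in Mtor CKO. It passed the filter through its WT libraries only, and its likeness depended on the added 1 FPKM. With 0.1 FPKM added its log2 difference between genotypes was -2.15, against -1.06 for Rad51c. The 3 genes had in common with Rad51c an even WT group and a high Mtor CKO library 2. That follows from their choice by likeness over these same libraries. The members were less alike: their profiles differed by 0.259, and 73 of the other 470 tested genes were closer to Rad50 than Rad51c was.

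**Figure D5:**
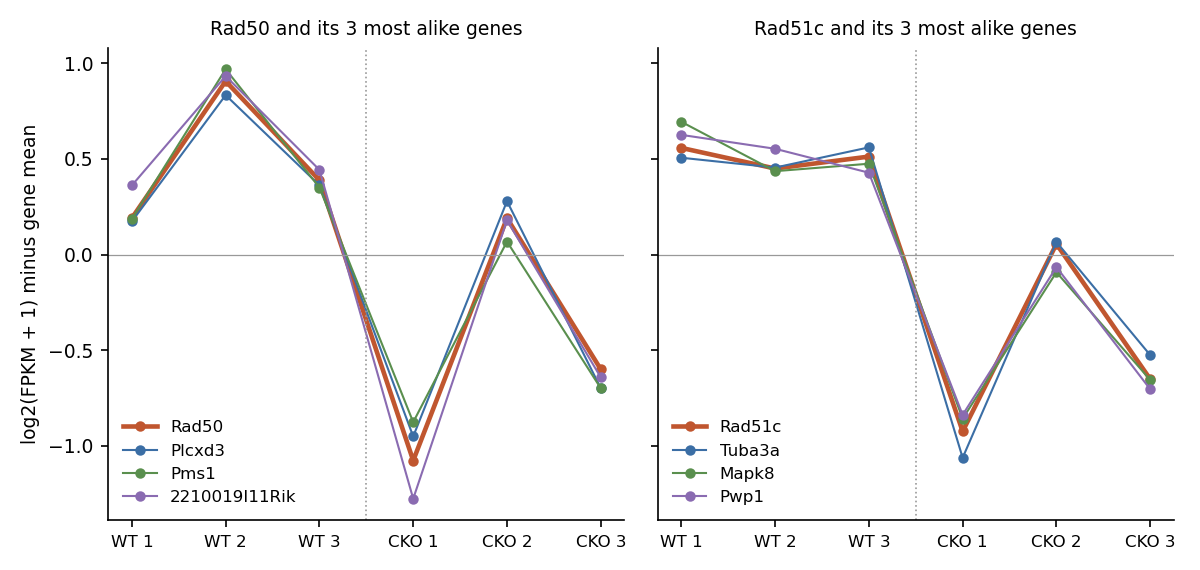
Profiles of log2(FPKM + 1) minus the gene's mean in each library, for Rad50 (left) and Rad51c (right, both thick lines) with the 3 genes most like each; lines only join the points of 1 gene, and replicates have no order. WT library 2 stands out in the Rad50 panel, whereas the WT points of the Rad51c panel are level, and CKO library 2 is the highest CKO point in both.

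No other row of the table lay within 1 Mb of Rad50, and the nearest one on chromosome 11, Mrpl55, was 5495 kb away. Within 1 Mb of Rad51c lay Mks1, a gene of the ciliary transition zone, at 448 kb, and Msi2, which encodes the RNA-binding protein Musashi 2, at 934 kb. Mks1 stood at 1.81, 3.14 and 1.05 FPKM in WT and at 0.181, 0.912 and 0.272 FPKM in Mtor CKO. Its log2 difference was -1.02 (limma adjusted p = 0.0374), or -2.02 with 0.1 in place of 1 FPKM added. Only its WT libraries reached 1 FPKM, so Mks1 passed the filter through the group where it was high. Its call therefore does not count as support for a fall. The call held without Mtor CKO replicate 2 and was lost without Mtor CKO replicate 1 or 3 (limma adjusted p = 0.0985 and 0.0984). Without any 1 WT library Mks1 was below the filter on level and was not tested. Msi2 had a log2 difference of -0.69 that did not pass (limma adjusted p = 0.0501). Chromosome 11 held 40 of the 516 rows, Rpa1 among them.

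The targeted gene, Mtor, was not among the rows, so the genotype labels were not checked against it. The oocyte markers Zp2 and Nlrp5, the 2 of 17 in the table, summed to 234 to 253 FPKM in Mtor CKO and 450 to 906 FPKM in WT. Of markers of other cells, the table held 2 of 18 for cumulus and granulosa cells, 1 of 10 for oviduct epithelium and 0 of 11 for blood. The cumulus and granulosa markers summed to 1.68 to 3.15 FPKM in Mtor CKO and 4.50 to 9.86 FPKM in WT, and Vcan had a listed value of 0 in each Mtor CKO library. Mro, the other one, fell by 0.93 on the log2 scale (limma adjusted p = 0.0399). Krt7, from the oviduct list, ranged from 4.23 to 10.1 FPKM without Mtor and from 2.45 to 4.40 FPKM with it (limma adjusted p = 0.0685). The part of other cells in the values of Rad50 and Rad51c was not tested. Read depth is not known. Over all rows, the median FPKM of a library was 3.77 to 5.40 in Mtor CKO and 7.37 to 9.18 in WT. The table held more genes called lower (60.3% of those tested) than higher (13.4%), so these medians are no measure of all RNA.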

How the data were processed

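Oocytes were lysed whole and cDNA was amplified by 17 PCR cycles, per the labels' protocols, so reads are not independent molecules. The submitters' processing notes name TopHat2 2.0.8b, Cufflinks 2.1.1, Cuffdiff and the build mm10. The authors deposited FPKM per library and per group, and gave each gene a log2 fold with its p-value and q-value. The deposited log2 fold is Mtor CKO over WT. The table gives no counts, so depth and counting error are unknown. Starts are given here as 1-based.

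Values of log2(FPKM + 1) from the 6 libraries were tested with limma 3.58.1 (R 4.3.3) and its empirical Bayes trend, for genes at 1 FPKM or more in at least 3 libraries (471 of 516), and tested on simulated data. The smallest p of the exact permutation test is 0.1. Transcripts came from GENCODE M21 and were compared with blastn 2.17.0. Alternatives were a pseudocount of 0.1, no filter, a mean of at least 5 FPKM, median-centred libraries, no trend, a replicate block and leaving out each library.

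The genes named were the members, list genes in the table, the 3 genes most like each member and rows within 1 Mb. Genes annotated to DNA repair and Ccnb1ip1 were added after the values were seen. The members and lists were chosen with earlier results of these data known.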

Additional observations from a re-analysis of the deposited data

How the results depend on the processing

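The log2 differences of Rad50 and Rad51c were below 0 under each of the 12 alternatives. Leaving out each library in turn gave -1.33 to -0.70 for Rad50 and -1.29 to -0.80 for Rad51c, and 1 to 295 lower and 1 to 88 higher genes of the table, against 284 and 63 with all libraries. Few genes were called without Mtor CKO replicate 1 (2 lower, 2 higher), Mtor CKO replicate 3 (3 and 2), WT replicate 2 (1 and 2) or WT replicate 3 (3 and 1), and without WT replicate 1 the counts were 205 and 37. The cause was not tested. With libraries centred on their median, the log2 difference of Rad51c was -0.26 and did not pass, and 3 genes were lower and 86 higher. Centring raised the log2 difference of every tested gene, and their median was then -0.28. A mean of at least 5 FPKM left 316 genes, of which 154 were lower and 41 higher.

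With the replicate number as a block, Rad50 passed at -0.99 (limma adjusted p = 0.0213), as did Rpa1 (adjusted p = 0.0346), so that 7 of the 8 genes from the repair lists were lower, and 326 genes of the table were lower and 79 higher. The deviations of same-numbered libraries correlated over 471 genes at 0.115, 0.240 and 0.0840 for numbers 1, 2 and 3. Libraries with unlike numbers correlated at -0.218 to -0.007, except Mtor CKO library 1 with WT library 3 (0.118). Deviations were taken from each group's mean, so these correlations are not independent of each other. The labels do not say what a number marks, so the numbers were not taken as pairs in the main test, and whether they mark pairs was not tested. Depth is unknown, and 3 libraries a group limit the precision.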
